A study of Mus musculus with 12 samples.

Results

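The genotype comparison in cells treated with TGFβ1 was examined across all genes in 4T1 cells, an established mouse mammary carcinoma line that models triple-negative disease. Its members are 6 of the 12 libraries of the series: 3 of PBRM1 knockout (KO) cells and 3 of control cells, chosen by their labelled genotype and treatment. Both groups had been grown for 4 days with 5 ng/ml TGFβ1, and each held n = 3 biological replicates. The other 6 libraries, labelled 0h, were PBRM1 KO and control cells that received no TGFβ1, also with n = 3 each. They share the estimate of gene variability and serve as the comparison without TGFβ1. The titles name no untreated cells of 4 days, so TGFβ1 and time in culture cannot be told apart between these groups. The library names mark control cells as sgCt and KO cells as sgPB, which the labels do not spell out. Whether the KO cells were 1 clone or a pool, where the gene was edited and the guide sequences are not given in the sources used here. Replicate numbers are those of the labels.

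PBRM1, also called BAF180, is a subunit with several bromodomains that is particular to PBAF, a variant among the SWI/SNF chromatin remodellers. SWI/SNF complexes move or evict nucleosomes and so set how accessible promoters and enhancers are. TGFβ1 binds a receptor pair that phosphorylates SMAD2 and SMAD3, and in mammary carcinoma cells it induces matrix, protease and cytoskeletal genes and can weaken epithelial junctions. NF-κB and C/EBPβ are transcription factors that drive inflammatory genes such as interleukin 1, chemokines and acute-phase proteins.

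Each library was a set of deduplicated counts from the 3′ ends of messenger RNA. The 6 libraries with TGFβ1 held 9265693 to 11189976 counts, from 22908 to 24402 detected genes, and mitochondrially encoded transcripts took 5.45 to 6.46% of their counts. Replicate 3 stood apart in both genotypes. The median of 20 tested TGFβ-SMAD target genes, relative to untreated control cells, was log2 0.95, 1.14 and 0.22 in control replicates 1, 2 and 3 and 1.04, 0.98 and 0.33 in KO replicates 1, 2 and 3. Same-numbered libraries of the 2 genotypes deviated from their group means together (correlations over genes of 0.396, 0.416 and 0.726). Unmatched pairs also correlated, at 0.221 for control 1 with KO 2 and 0.323 for control 2 with KO 1. The pairing was thus clearest for replicate 3. A fit with the replicate number as a block within each treatment, called the blocked fit below, is given beside results that it changes. Of 14 epithelial carcinoma markers 13 reached the level needed for testing. Krt8 ranged from 572 to 728 CPM (counts scaled to the library total) and Cdh1 from 124 to 189 CPM over the 6 libraries. Ehf was low, at 0.179 to 4.53 CPM, and Muc1, at most 0.271 CPM, was not tested. Of 20 leukocyte markers 4 were at 0 in all 6 libraries and 2 reached the level needed for testing, and the summed level of the list was 7.38 to 10.2 CPM in control and 9.96 to 12.7 CPM in KO libraries; Ptprc, which encodes the leukocyte antigen CD45, was at most 0.181 CPM. The 12 endothelial markers summed to 6.69 to 7.24 CPM in control and 5.95 to 7.596 CPM in KO libraries. The 14 fibroblast markers summed to 264 to 375 and 260 to 338 CPM. Most of that was Gsn, at 225 to 270 CPM, and 7 of the 14 were too low to test. These counts cannot tell which cells made the fibroblast transcripts.

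Pbrm1 itself had a level of 290, 292 and 276 CPM in control replicates 1 to 3 and of 274, 233 and 222 CPM in KO replicates 1 to 3. All 3 KO libraries lay below the controls, by log2 −0.25 ± 0.10 (SE; edgeR quasi-likelihood adjusted p = 0.513). In the blocked fit the gene passed at −0.25 ± 0.06 (edgeR adjusted p = 0.0368). Counts from the 3′ end need not cover the edited stretch of a gene, and neither the edit nor the protein is checked by them. Of the 26 other tested SWI/SNF subunits 0 passed in either fit.

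PBRM1 KO cells with TGFβ1 had lower levels of a small set of inflammatory and host-defence genes than control cells with TGFβ1. Of 14012 tested genes 28 were lower (0.2%) and 10 were higher (0.0714%) at a Benjamini-Hochberg adjusted p below 0.05 in edgeR's quasi-likelihood test, 38 in all (0.271%). All 38 encode proteins. The lower genes included lipocalin 2, both interleukin 1 genes, a granulocyte growth factor, the MHC class I gene H2-D1 and the class I transactivator Nlrc5, complement C3 and the transcription factor C/EBPβ. The median change was log2 −1.34 for the 28 lower genes, 20 of which were at least 2-fold lower, and 0.83 for the 10 higher genes, 4 of which were at least 2-fold higher. For all 38 genes the 3 libraries of one genotype lay wholly on one side of the 3 of the other, a separation shown by 5.61% of all tested genes downwards and 6.28% upwards, 11.9% in all. The same 38 genes passed in the blocked fit, which called 334 genes lower (2.38%) and 231 higher (1.65%), together 565 (4.03%). Lower genes were thus 73.7% of the calls without the block and 59.1% with it. The other contrast of the same kind, KO against control without TGFβ1, called 33 genes lower (0.236%) and 6 higher (0.0428%).

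**Figure D1:**
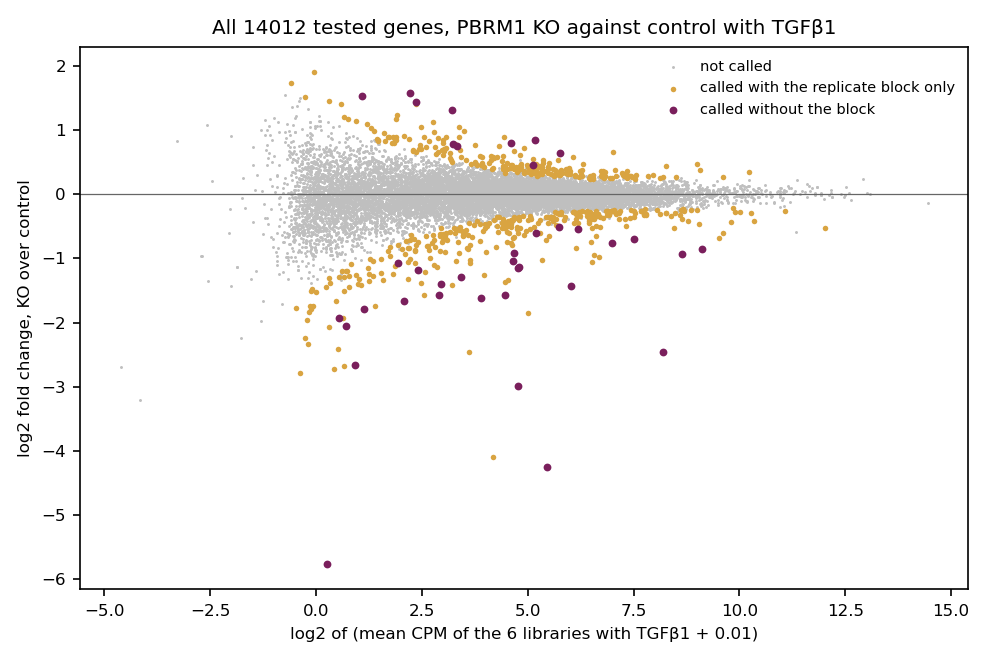
Each point is 1 of 14012 tested genes, with its log2 fold change (PBRM1 KO over control, both with TGFβ1) on the y axis against the log2 of its mean CPM plus 0.01 over the 6 libraries on the x axis. The 38 genes called without the block (dark) lie mostly below 0, and genes called only in the blocked fit (yellow) lie on both sides.

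Single libraries weighed on how many genes passed. Without KO replicate 2, 3 genes were lower and 0 higher, and without KO replicates 1 and 3 the counts were 17 and 1, and 23 and 10. Without control replicates 1, 2 and 3 they were 10 and 0, 11 and 0, and 48 and 13. Lcn2, Il1a and Acod1 passed in every one of these 6 fits. The 35 genes lost without KO replicate 2 had adjusted p from 0.0585 to 0.25 there, and none of the 38 changed direction in any fit. Leaving out both libraries of replicate 3 gave 55 lower and 21 higher genes, 32 of the 38 among them.

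**Figure D2:**
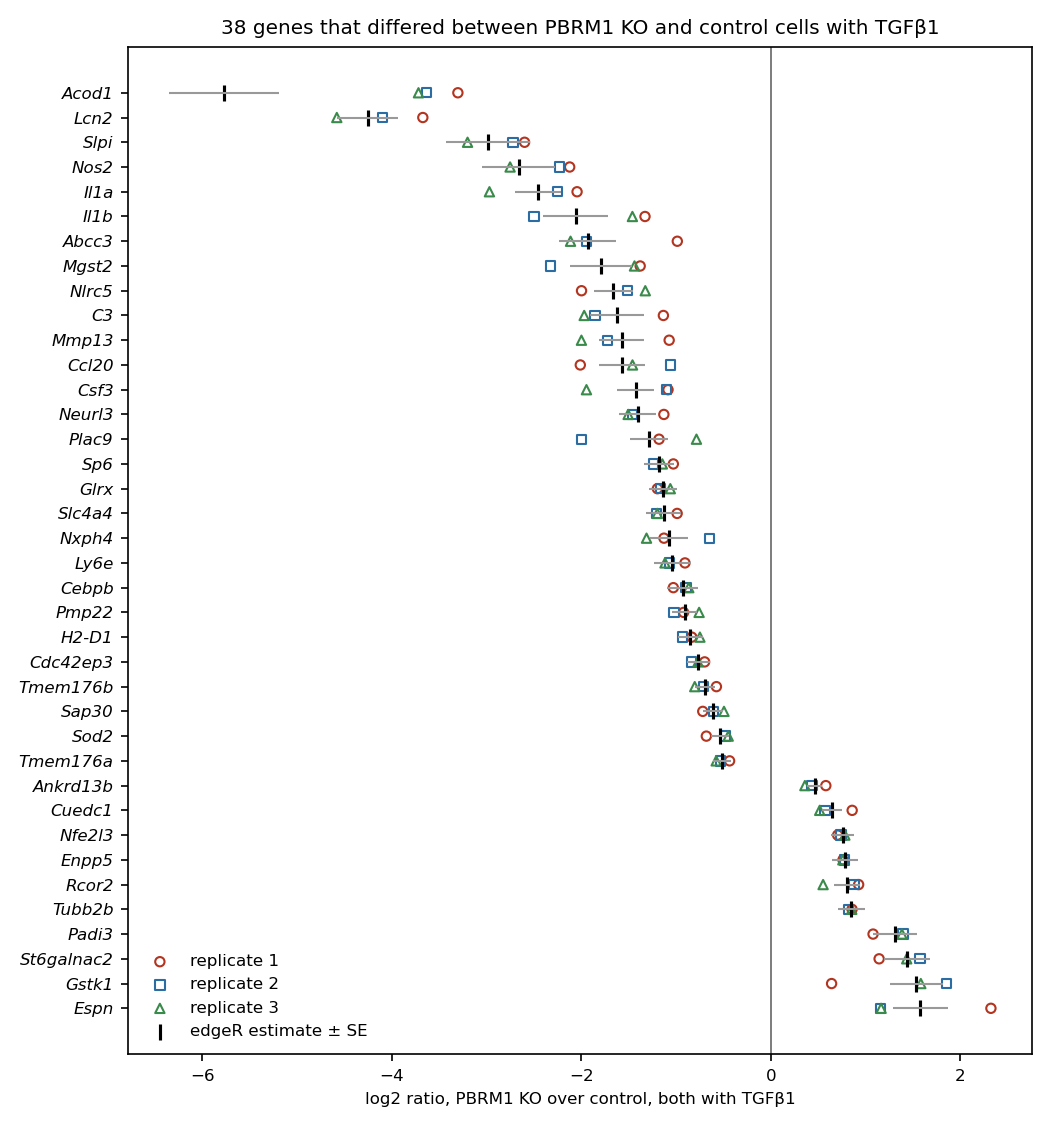
Log2 ratio of PBRM1 KO to control, both with TGFβ1, on the x axis for the 38 called genes (rows); open symbols are the ratios of same-numbered libraries after adding a prior count of 2, and the black tick with its line is edgeR's estimate ± SE. All 3 ratios of every gene lie on the same side of 0; for Acod1, counted once in the KO libraries, the prior count pulls the ratios towards 0.

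The promoters of some lower genes are shown because several hold a consensus match for an inflammatory transcription factor just upstream of the start. RefSeq promoter sequence (GRCm38.p6) was matched by symbol for 27 of the 38 genes, 20 of them lower. Csf3, Nos2 and Nlrc5 were among those without a sequence. The 250 bases before the start were searched on both strands for the NF-κB consensus, for the AP-1 site (TGANTCA), for the interferon-stimulated response element and for a TATA box (TATAAA). An NF-κB match stood in 6 of the 20 lower genes (30.0%), in 5.51% of 9134 tested genes with a promoter and in 4.46% of all 27025 genes of the table. A TATA box stood in 7 of the 20 (35.0%), against 7.57% of tested genes and 14.3% of the table. An AP-1 site stood in 4 (20%), against 5.63% and 7.82%, and an interferon element in 1 (5.0%), against 3.16% and 3.46%. Lcn2, Slpi, C3 and Cebpb were among the lower genes with no match to any of these motifs. Of the 7 higher genes 1 held an NF-κB match and 1 a TATA box. Among the genes lower in the blocked fit, 27 of 241 promoters (11.2%) held an NF-κB match, and so did 19 of 170 (11.2%) of the genes higher in it. For the AP-1 site the shares were 10.8% of the lower and 10.6% of the higher genes. For the TATA box they were 11.2% and 6.47%, and for the interferon element 5.81% and 1.18%. These matches are letters in a window and no measure of binding.

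Printed 5′ to 3′ on the gene's own strand and ending at the base before the start, with an NF-κB match in capitals, these are Ccl20 (chr1:83116646-83116765, + strand), Neurl3 (chr1:36273426-36273545, − strand), Sod2 (chr17:13007719-13007838, + strand), Tmem176a (chr6:48841378-48841482, + strand) and H2-D1 (chr17:35262914-35263093, + strand), where 2 overlapping matches form the capitals.
Ccl20: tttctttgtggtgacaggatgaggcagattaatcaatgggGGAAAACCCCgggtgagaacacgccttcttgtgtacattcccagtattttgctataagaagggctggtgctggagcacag
Neurl3: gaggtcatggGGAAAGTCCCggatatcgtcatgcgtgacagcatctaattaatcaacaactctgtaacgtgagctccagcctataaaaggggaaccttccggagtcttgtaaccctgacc
Sod2: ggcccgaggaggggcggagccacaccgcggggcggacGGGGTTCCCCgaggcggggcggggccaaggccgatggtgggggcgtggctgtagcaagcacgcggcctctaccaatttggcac
Tmem176a: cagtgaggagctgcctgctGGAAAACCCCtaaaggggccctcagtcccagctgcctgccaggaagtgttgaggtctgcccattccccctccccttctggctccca
H2-D1: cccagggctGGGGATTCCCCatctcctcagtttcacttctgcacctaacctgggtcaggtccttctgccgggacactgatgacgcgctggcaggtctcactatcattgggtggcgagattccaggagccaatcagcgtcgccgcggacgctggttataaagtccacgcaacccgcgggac

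The Tmem176a match also lies in a promoter window of its neighbour Tmem176b, which is transcribed the other way, so 2 of the 6 genes share the same bases (chr6:48841397-48841406). Il1a (chr2:129309973-129310092, − strand) and Mmp13 (chr9:7272394-7272513, + strand) each held an AP-1 site near the start, printed here in capitals.
Il1a: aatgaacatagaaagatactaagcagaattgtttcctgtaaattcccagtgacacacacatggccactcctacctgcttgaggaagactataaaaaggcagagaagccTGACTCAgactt
Mmp13: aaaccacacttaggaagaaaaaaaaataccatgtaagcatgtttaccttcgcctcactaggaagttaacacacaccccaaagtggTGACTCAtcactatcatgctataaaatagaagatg

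Il1b (chr2:129371140-129371259, − strand) and Acod1 (chr14:103046892-103047011, + strand) held a TATA box, in capitals, and no match to the other 3 motifs in the window.
Il1b: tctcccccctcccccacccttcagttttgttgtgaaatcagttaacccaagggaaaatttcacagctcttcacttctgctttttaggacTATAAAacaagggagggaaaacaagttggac
Acod1: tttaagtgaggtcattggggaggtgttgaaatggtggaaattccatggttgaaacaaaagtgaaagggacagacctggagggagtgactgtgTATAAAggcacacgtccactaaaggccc

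Cytokines and chemokines were among the lower genes. Of 22 tested genes of this list 4 were lower and 0 higher, and in the blocked fit 9 were lower and 0 higher. The list's median was log2 −0.50, against −0.00 over all tested genes. Il1a, which encodes interleukin 1α, an alarm cytokine that acts on the same receptor as interleukin 1β, was counted at 374, 465 and 640 CPM in control replicates 1 to 3 and at 92.4, 97.4 and 81.8 CPM in KO replicates 1 to 3. The KO libraries lay close together and far below the lowest control. The difference was log2 −2.46 ± 0.24 (edgeR adjusted p = 0.000753), or 5.50-fold. Il1b, its neighbour on chromosome 2 with 0 protein-coding genes between them, stood at 2.37, 3.71 and 1.80 CPM in control and 0.849, 0.498 and 0.536 CPM in KO libraries. The groups did not overlap, at a level of 82 summed counts against 20, and the difference was log2 −2.06 ± 0.34 (edgeR adjusted p = 0.0236).

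Csf3 encodes G-CSF, the growth factor that drives neutrophil production. It was counted at 80.6, 75.2 and 129 CPM in control and 38.7, 34.9 and 33.3 CPM in KO libraries, log2 −1.43 ± 0.20 (edgeR adjusted p = 0.0104). Ccl20, the ligand of the chemokine receptor CCR6, stood at 14.3, 9.14 and 10.1 CPM against 3.49, 4.28 and 3.58 CPM, log2 −1.57 ± 0.24 (edgeR adjusted p = 0.0162). For both genes every KO library was below every control library, and the highest control library was replicate 3 for Csf3 and replicate 1 for Ccl20.

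The neutrophil chemokine genes Cxcl1 and Cxcl5, named after their values were seen, passed in the blocked fit alone. Cxcl1 stood at 35.5, 25.4 and 89.9 CPM in control and 13.7, 10.6 and 18.1 CPM in KO libraries, with replicate 3 the highest of each group. Its difference was log2 −1.85 ± 0.41 without the block (edgeR adjusted p = 0.102), and the block moved it to −1.75 ± 0.16 (edgeR adjusted p = 6.94e-06). Cxcl5 stood at 8.53, 3.53 and 50.1 CPM against 2.27, 2.19 and 6.79 CPM, so that the groups overlapped although each control library was above the KO library of the same number; the blocked value was −2.37 ± 0.24 (edgeR adjusted p = 1.60e-05). Cxcl16 (−0.65), Cx3cl1 (−0.51) and Csf1 (−0.31), also named after their values were seen, passed in the blocked fit with smaller log2 differences.

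Acute-phase and antimicrobial genes made the largest group of calls among the 38 lists. The lists were chosen with earlier results of these data known, so this rank is a description and no independent result. Its calls include Tmem176a and Tmem176b, which are described below. Of 11 tested members 7 were lower and 0 higher, and 9 were lower in the blocked fit. All 11 lay below 0, against 7096 of all 14012 tested genes, and the median was log2 −0.70. Lcn2 encodes lipocalin 2, a secreted protein that binds iron-carrying siderophores. It was counted at 56.4, 66.4 and 128 CPM in control and at 4.34, 3.69 and 5.18 CPM in KO libraries. The difference of log2 −4.25 ± 0.32 (edgeR adjusted p = 7.00e-05), or 19.1-fold, had the lowest p of all genes tested. Slpi encodes a secreted inhibitor of neutrophil elastase, and stood at 27.8, 34.0 and 84.2 CPM against 4.53, 4.98 and 9.03 CPM, log2 −2.98 ± 0.45 (edgeR adjusted p = 0.0162). Both genes were highest in replicate 3 in either genotype, and no KO library reached the lowest control library.

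Acod1 encodes the enzyme that makes itaconate, an antibacterial metabolite that also restrains inflammation. It stood at 2.59, 2.17 and 2.27 CPM in control and at 0.0944, 0 and 0 CPM in KO libraries, 72 summed counts against 1. The ratio of control to KO was 74.2 with a 95% exact binomial interval of 12.9 to 2971 that covers counting error only, and the gene passed with edgeR adjusted p = 0.00272. Nos2, the inducible nitric oxide synthase, stood at 3.45, 3.98 and 2.27 CPM against 0.661, 0.697 and 0.179 CPM, log2 −2.66 ± 0.38 (edgeR adjusted p = 0.0142). Sod2, the mitochondrial superoxide dismutase, stood at 90.3, 79.2 and 87.5 CPM against 57.5, 56.5 and 64.2 CPM, a smaller difference of −0.54 ± 0.10 (edgeR adjusted p = 0.0427); its counts were fractional in 10 of 12 libraries, as happens when a read is divided among genes.

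Tmem176b and Tmem176a, also in this list, encode membrane channel proteins known from dendritic cells rather than antimicrobial effectors, and lie side by side on chromosome 6. Tmem176b stood at 219, 219 and 242 CPM against 150, 133 and 139 CPM (log2 −0.70 ± 0.11, edgeR adjusted p = 0.0162), and Tmem176a at 61.3, 61.1 and 65.6 CPM against 46.2, 42.2 and 44.1 CPM (−0.52 ± 0.09, adjusted p = 0.0323). Both pairs of groups were narrow and did not overlap. Ptges, a prostaglandin E synthase (log2 −0.82), and Wfdc2, a secreted protein related to Slpi (−0.42), passed in the blocked fit alone. The Tmem176 pair, Sod2, Ptges and Wfdc2 were named after their values were seen.

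**Figure D3:**
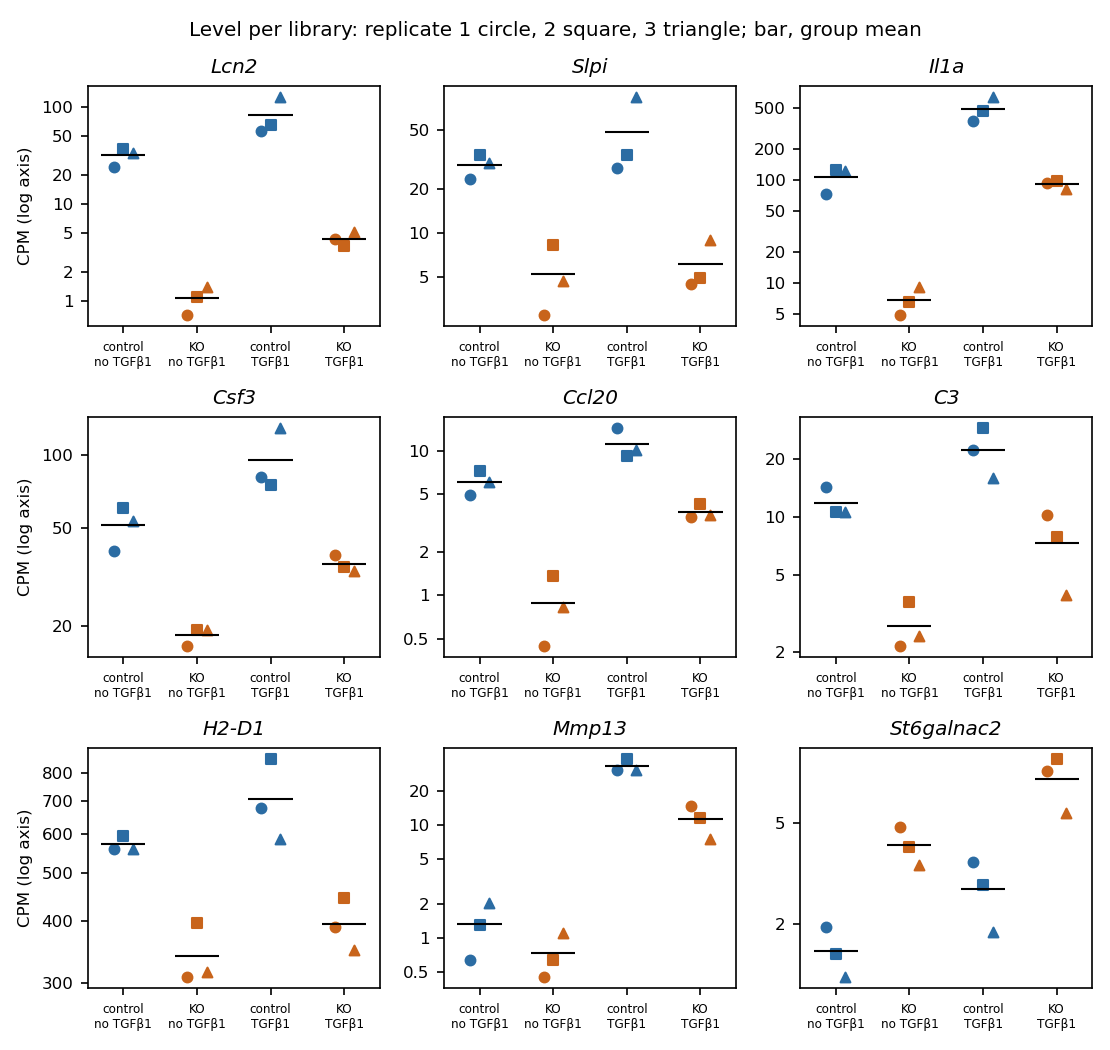
CPM on a log y axis in each of the 12 libraries for 9 called genes; symbols mark replicates 1 to 3, bars mark group means, blue is control and orange is PBRM1 KO. In the groups with TGFβ1 the KO libraries lie below all control libraries in 8 genes and above them in St6galnac2.

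C3, the central component of complement, stood at 22.3, 29.0 and 15.9 CPM in control and 10.3, 7.87 and 3.93 CPM in KO libraries. Replicate 3 was the lowest of both groups, unlike in Lcn2 and Slpi, and the groups did not overlap (log2 −1.62 ± 0.29, edgeR adjusted p = 0.0323). It was the 1 gene of 5 tested complement genes that passed. Cebpb, which encodes the transcription factor C/EBPβ, stood at 524, 618 and 432 CPM against 262, 331 and 238 CPM (log2 −0.93 ± 0.16, edgeR adjusted p = 0.0323). Each KO library was below the lowest control library.

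NF-κB subunits, inhibitors and feedback genes were split between higher and lower. Of 25 tested genes 0 passed, the median was log2 −0.03, and in the blocked fit 3 were lower and 2 higher. Rela, which encodes the p65 subunit, stood at 84.3, 80.3 and 76.5 CPM in control and 102, 94.0 and 92.5 CPM in KO libraries; it was 0.25 ± 0.06 higher in the blocked fit (edgeR adjusted p = 0.0365). Ikbke, a kinase that activates interferon regulatory factors, was lower there (−0.87 ± 0.17, edgeR adjusted p = 0.00726). Tnfaip3 (−0.44) and Nfkbiz (−0.46), feedback genes, were also lower and Traf1 (0.31) higher, all 3 named after their values were seen. In the TNF receptor family 0 of 14 genes passed; in the blocked fit Cd40 (−0.85, named after its values were seen) and the death receptor gene Fas (−0.66) were lower, and Tnfrsf11a, the receptor RANK, was higher (1.91 ± 0.38, edgeR adjusted p = 0.00846).

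MHC class I presentation held 2 lower genes and 0 higher among 23 tested, and 4 lower in the blocked fit, with a median of log2 −0.19. Nlrc5, the transactivator of MHC class I genes, stood at 6.48, 6.33 and 6.53 CPM in control and 1.51, 2.09 and 2.50 CPM in KO libraries. Its control libraries were nearly level and the difference was log2 −1.66 ± 0.21 (edgeR adjusted p = 0.00568). H2-D1, a classical class I heavy chain, stood at 679, 853 and 586 CPM against 389, 445 and 350 CPM (log2 −0.85 ± 0.13, edgeR adjusted p = 0.0174). Its counts were fractional in 11 of 12 libraries, so its values may include reads divided with similar class I genes. B2m, the light chain, stood at 901, 1060.0 and 756 CPM against 507, 668 and 537 CPM, and H2-K1 at 920.2, 1289 and 856 CPM against 776, 852 and 651 CPM. These 2 genes, named after their values were seen, passed in the blocked fit alone, at −0.67 ± 0.07 and −0.42 ± 0.07 (edgeR adjusted p = 1.06e-05 and 0.00144). Of 3 tested MHC class II genes Cd74, the invariant chain, was higher in the blocked fit (1.03 ± 0.16, edgeR adjusted p = 0.0014).

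Interferon-stimulated genes leaned downwards without passing. Of 42 tested genes 0 passed, 34 lay below 0 and the median was log2 −0.30. Over all 14012 tested genes 7096 lay below 0. In the blocked fit 7 genes of the list were lower and 0 higher. Without TGFβ1 the list had 3 lower genes in the fit without the block and a median of −0.39. Cxcl10, a chemokine for T cells, stood at 5.61, 7.24 and 5.30 CPM in control and 2.36, 2.69 and 3.66 CPM in KO libraries (blocked −1.05 ± 0.22, edgeR adjusted p = 0.0101). Cmpk2 (−2.03), Ifit3 (−1.48), Rsad2 (−1.33), Ifi44 (−1.05), Ifit1 (−1.003) and Oasl2 (−0.64) were the others lower in the blocked fit; all but Cmpk2 were named after their values were seen. Ifi44, an interferon-induced gene, stood at 18.1, 28.5 and 3.88 CPM in control and 8.96, 13.4 and 2.06 CPM in KO libraries. Its replicate 3 libraries were several-fold below the others in both genotypes, so the groups overlapped while each pair differed in the same direction. Of 25 tested interferon regulatory factors, STATs and JAKs 0 passed and 1, the receptor subunit gene Ifnar2, was lower in the blocked fit (−0.40 ± 0.10, edgeR adjusted p = 0.0248).

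Ly6e, a membrane-anchored surface protein induced by interferon, stood at 31.5, 42.1 and 27.1 CPM in control and 17.1, 19.9 and 12.4 CPM in KO libraries (log2 −1.04 ± 0.20, edgeR adjusted p = 0.0481). It was 1 of 3 tested Ly6 family genes and the only one of them that passed. Of 7 tested checkpoint ligands 0 passed; Nectin2 (−0.54 ± 0.09), Lgals9 (−0.55 ± 0.12) and 1 other were lower in the blocked fit.

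Among 33 tested matrix proteases and inhibitors 1 was lower and 0 higher, and in the blocked fit 8 were lower and 0 higher. Mmp13, a collagenase, stood at 30.5, 38.3 and 30.5 CPM in control and 14.7, 11.4 and 7.51 CPM in KO libraries (log2 −1.58 ± 0.24, edgeR adjusted p = 0.0162). The stromelysin gene Mmp3 showed the weight of the block most plainly. It stood at 11.6, 16.9 and 67.0 CPM in control and 6.04, 6.47 and 24.7 CPM in KO libraries, overlapping because replicate 3 was high in both, and passed in the blocked fit alone (−1.33 ± 0.13, edgeR adjusted p = 1.06e-05). Mmp10 (−0.88), Mmp12 (−0.83), Serpine2 (−0.80) and Timp1 (−0.32) were other members lower in that fit. Mmp3, Mmp10, Mmp12, Serpine2 and Timp1 were named after their values were seen. Mmp9, a gelatinase, stood at 767, 961 and 227 CPM against 1006, 983 and 278 CPM and did not pass in either fit (0.20 ± 0.45, edgeR adjusted p = 0.959); its direction turned when single libraries were left out.

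TGFβ target and receptor genes did not pass without the block. Of 20 tested TGFβ-SMAD targets 0 passed, and the median was log2 0.05. Smad7, the inhibitory SMAD, stood at 89.9, 92.5 and 50.4 CPM in control and 85.5, 82.3 and 49.6 CPM in KO libraries (−0.11 ± 0.22, edgeR adjusted p = 0.948). Ccn2, a matricellular growth factor, stood at 594, 467 and 309 CPM against 498, 457 and 248 CPM (−0.20 ± 0.25, edgeR adjusted p = 0.904), and both genes were lowest in replicate 3. The errors are as wide as these differences, which therefore do not show that the genotypes were alike. In the blocked fit Pmepa1 (0.38 ± 0.06) and Ltbp3 (0.36 ± 0.08), genes that restrain or store TGFβ, were higher.

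Of 29 tested TGFβ ligands, receptors and SMADs 0 passed, and in the blocked fit 2 were lower and 1 higher. Tgfbr1, which encodes the type I receptor, stood at 47.7, 53.3 and 52.99 CPM in control and 43.0, 38.7 and 38.7 CPM in KO libraries (blocked −0.37 ± 0.08, edgeR adjusted p = 0.0169). Inhba, the activin A subunit, stood at 117, 122 and 57.7 CPM against 191, 191 and 92.2 CPM. Each KO library was above the control library of the same number, and the blocked value was 0.66 ± 0.07 (edgeR adjusted p = 1.48e-05); the gene was named after its values were seen. Id1, a repressor of helix-loop-helix factors, stood at 27.1, 33.6 and 24.2 CPM against 16.7, 15.1 and 19.0 CPM (blocked −0.74 ± 0.13, edgeR adjusted p = 0.00375).

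Mesenchymal and epithelial genes did not pass without the block. Of 26 tested mesenchymal genes 0 passed, and in the blocked fit 4 were higher and 2 lower. Vim, which encodes the intermediate filament vimentin, stood at 968, 952 and 1223 CPM in control and 1249, 1158 and 1628 CPM in KO libraries, higher in each pair (blocked 0.34 ± 0.06, edgeR adjusted p = 0.00202). Acta2, smooth muscle actin, went the other way at 13.5, 8.80 and 1.80 CPM against 4.27, 4.31 and 0.804 CPM (blocked −1.36 ± 0.18, edgeR adjusted p = 0.000301) and was named after its values were seen. Tcf4 (0.44) and Sparc (0.49, named after its values were seen) were higher in the blocked fit. Fn1, fibronectin, stood at 1546, 2038 and 1406 CPM against 1877, 1854 and 1432 CPM (0.04 ± 0.13, edgeR adjusted p = 0.976). The repressors of Cdh1 gave adjusted p from 0.811 to 0.971 in edgeR, with Snai1 at −0.08 ± 0.23, Zeb1 at −0.21 ± 0.36 and Zeb2 at −0.11 ± 0.09.

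Of 45 tested epithelial junction and identity genes 0 passed, the median was log2 −0.02, and 5 were lower and 0 higher in the blocked fit. Ehf and Elf3 encode ETS factors of epithelial cells. Ehf stood at 4.53, 2.53 and 1.04 CPM in control and 0.661, 0.398 and 0.179 CPM in KO libraries, a blocked difference of −2.69 ± 0.32 (edgeR adjusted p = 8.65e-05). Elf3 stood at 25.5, 28.2 and 31.8 CPM against 17.0, 20.4 and 19.4 CPM (blocked −0.60 ± 0.10, edgeR adjusted p = 0.003). Neither pair of groups overlapped. The junction genes Ocln (−0.48), Perp (−0.34) and the membrane protease gene St14 (−0.31), named after their values were seen, were the others. Cdh1, E-cadherin, stood at 156, 168 and 124 CPM against 189, 173 and 150.5 CPM (0.18 ± 0.12, edgeR adjusted p = 0.753), and Epcam, an epithelial adhesion molecule, at 207, 248 and 163 CPM against 254, 270.0 and 176 CPM (0.17 ± 0.15, adjusted p = 0.849).

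Matrix genes were mixed. Of 52 tested collagens, laminins and matrix assembly genes 0 passed, and 6 were lower and 2 higher in the blocked fit. Postn, periostin, stood at 112, 122 and 36.0 CPM in control and 69.8, 60.7 and 22.6 CPM in KO libraries (blocked −0.81 ± 0.10, edgeR adjusted p = 0.000194), and Spp1, osteopontin, at 676, 1202 and 925 CPM against 560.5, 701 and 599.9 CPM (blocked −0.57 ± 0.10, edgeR adjusted p = 0.003). Both, named after their values were seen, overlapped between the groups. Tnc, tenascin C, stood at 330.2, 323 and 103 CPM against 309.5, 255 and 84.1 CPM and passed in neither fit (edgeR adjusted p = 0.94, and 0.0593 with the block).

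**Figure D4:**
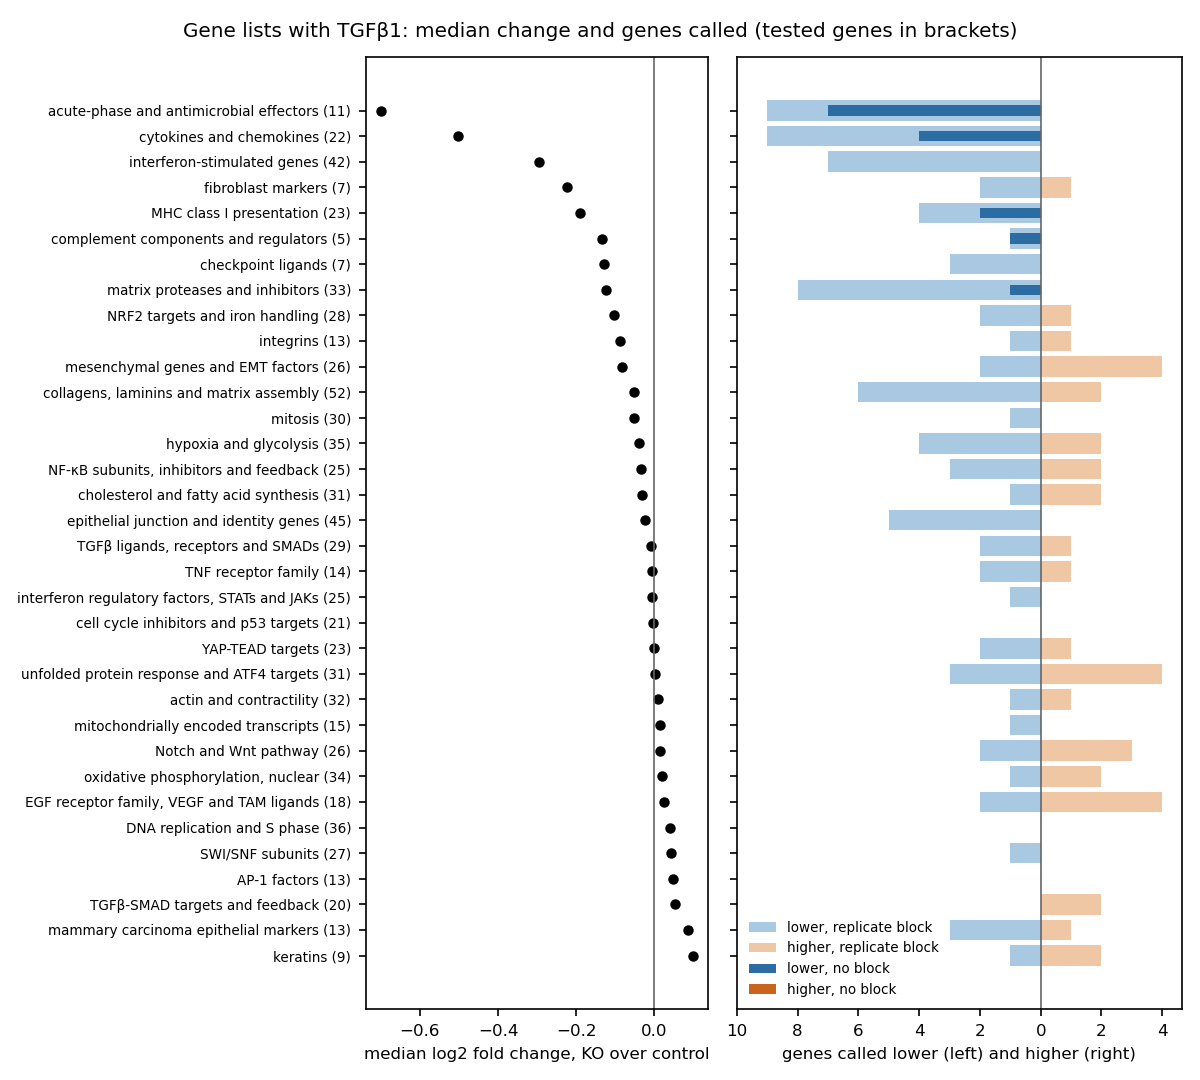
For each gene list with at least 5 tested genes (number in brackets), the left panel shows the median log2 fold change of KO over control with TGFβ1 and the right panel the number of genes called lower (left of 0) and higher (right of 0), without (dark) and with (pale) the replicate block. Acute-phase and antimicrobial effectors (−0.70) and cytokines and chemokines (−0.50) have the lowest medians, and no list held a gene called higher without the block.

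The remaining lower genes, like Cebpb, fall outside the lists. Glrx, glutaredoxin, which reduces glutathionylated proteins, stood at 35.8, 35.1 and 42.3 CPM in control and 15.8, 15.5 and 20.3 CPM in KO libraries (log2 −1.14 ± 0.15, edgeR adjusted p = 0.0092). Neurl3, which encodes an E3 ubiquitin ligase, stood at 9.93, 9.41 and 13.96 CPM against 4.53, 3.29 and 4.83 CPM (−1.41 ± 0.19, edgeR adjusted p = 0.0104). Slc4a4, a sodium bicarbonate cotransporter, stood at 39.1, 38.4 and 35.6 CPM against 20.01, 16.5 and 15.5 CPM (−1.13 ± 0.18, edgeR adjusted p = 0.0223). These 3 genes separated the genotypes by a gap wider than either group's range. Pmp22, a membrane protein of myelin also made outside nerve, stood at 36.9, 34.5 and 27.8 CPM against 19.8, 16.8 and 16.4 CPM (−0.91 ± 0.14, edgeR adjusted p = 0.0162). Plac9, a small secreted protein, stood at 14.9, 16.5 and 14.1 CPM against 6.61, 3.98 and 8.13 CPM (−1.28 ± 0.20, edgeR adjusted p = 0.0162).

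A further 6 lower genes were named after their values were seen, since they were low in level or among the smaller changes. Sp6, a transcription factor of the Sp family, was lower by log2 −1.18 ± 0.16, Abcc3, an export pump for conjugated organic anions, by −1.93 ± 0.30, Mgst2, a microsomal glutathione transferase, by −1.80 ± 0.32 and Nxph4, a neurexin ligand, by −1.08 ± 0.20. These 4 averaged under 10 CPM in both groups, and edgeR adjusted p ran from 0.0104 for Sp6 to 0.0482 for Nxph4. Cdc42ep3, an effector of the small GTPase CDC42, went from a mean of 159 ± 14.7 to 94.4 ± 13.5 CPM (SD, n = 3), log2 −0.76 ± 0.12. Sap30, a subunit of the SIN3 histone deacetylase complex, went from 44.4 ± 2.49 to 29.3 ± 1.47 CPM, log2 −0.61 ± 0.10.

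None of the 10 higher genes was in a list. Padi3, which converts arginine to citrulline in proteins, stood at 5.94, 6.33 and 3.50 CPM in control and 13.02, 16.9 and 9.47 CPM in KO libraries (log2 1.31 ± 0.23, edgeR adjusted p = 0.0323). Nfe2l3, a transcription factor of the NRF family, stood at 8.20, 7.33 and 6.81 CPM against 13.8, 12.3 and 11.9 CPM (0.76 ± 0.12, edgeR adjusted p = 0.0175). Rcor2, a CoREST corepressor, stood at 19.2, 16.6 and 17.3 CPM against 37.5, 30.7 and 25.6 CPM (0.80 ± 0.14, edgeR adjusted p = 0.0286). In each of the 3 genes the lowest KO library was above the highest control library.

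Cuedc1, a protein with a ubiquitin-binding CUE domain, was the highest in level of the 10, at 39.0, 42.0 and 44.8 CPM against 72.2, 62.3 and 64.4 CPM (0.65 ± 0.11, edgeR adjusted p = 0.0223). Tubb2b, a β-tubulin, stood at 28.4, 26.5 and 22.3 CPM against 52.7, 46.8 and 40.6 CPM (0.85 ± 0.14, edgeR adjusted p = 0.0273), with fractional counts in all 12 libraries. Ankrd13b, an ankyrin repeat protein, had the smallest change, from 29.2 ± 0.659 to 40.5 ± 2.74 CPM (SD, n = 3; log2 0.46 ± 0.08). Enpp5, an ectonucleotide pyrophosphatase family member, went from 6.88 ± 0.637 to 11.96 ± 1.15 CPM (0.78 ± 0.13). The other 3 averaged under 10 CPM and were named after their values were seen. Espn, the actin-bundling protein espin, was higher by 1.58 ± 0.29, Gstk1, a glutathione transferase of mitochondria and peroxisomes, by 1.54 ± 0.28 and St6galnac2, which adds sialic acid to O-linked sugars, by 1.43 ± 0.24.

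Without TGFβ1 the same genes leaned the same way. All 28 lower and all 10 higher genes had the same sign in the untreated comparison, and 17 lower and 2 higher genes (Padi3 and Espn) passed there as well. That comparison shares no library with the treated one, but both use the same estimate of gene variability. The 19 shared genes are 50.0% of the 38 called with TGFβ1 and 48.7% of the 39 called without it. The blocked fit called more genes without TGFβ1, 327 lower (2.33%) and 173 higher (1.23%), together 500 (3.57%), and these held 26 of the 28 lower and 8 of the 10 higher genes, 34 of the 38 (89.5%). The other 4 were Mmp13, Sod2, Nfe2l3 and Gstk1. Same-numbered untreated libraries deviated together less clearly (correlations of 0.149, 0.069 and 0.125), and the unmatched control 2 with KO 3 gave 0.0854. The blocked fit pairs them by number all the same, so its untreated calls rest on a pairing that the data show only weakly. The median of the 28 lower genes was log2 −1.34 with and −1.23 without TGFβ1, and that of the 10 higher genes 0.83 and 0.53. In the blocked fit 95.5% of the 334 lower and 89.2% of the 231 higher genes had the same sign untreated. The share of all tested genes with the same sign in both comparisons was not counted.

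**Figure D5:**
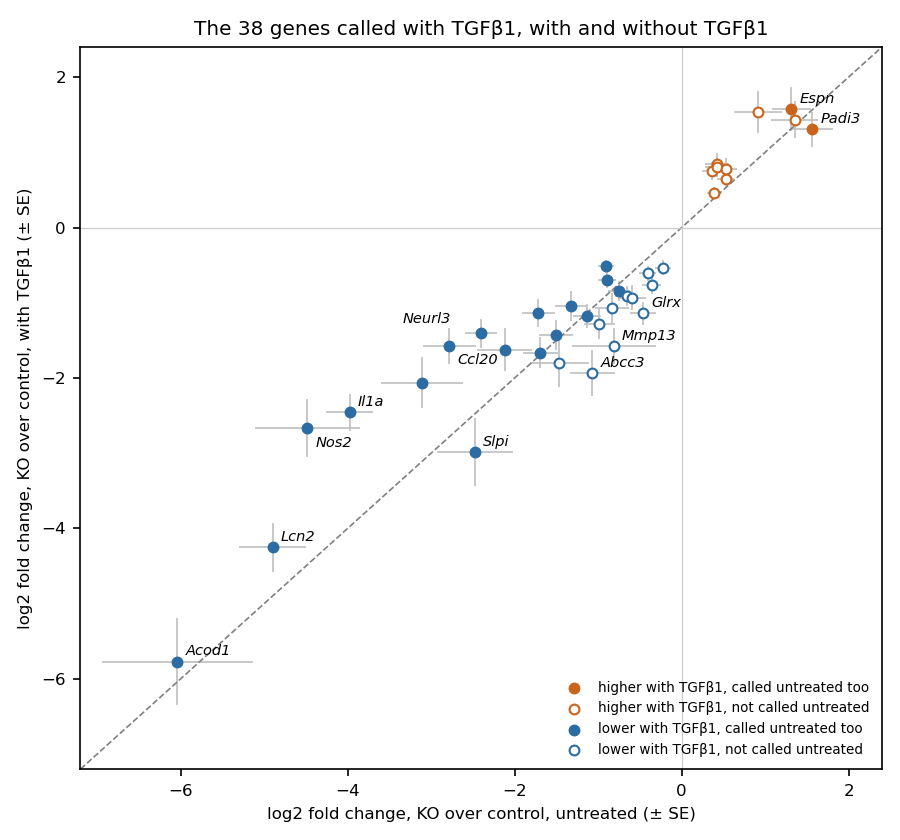
Log2 fold change of PBRM1 KO over control with TGFβ1 (y axis) against the same without TGFβ1 (x axis) for the 38 called genes, with SE bars; filled points passed without TGFβ1 too and the dashed line marks equal values. All points share their sign on both axes; Il1a (−2.46 and −3.98), Nos2 (−2.66 and −4.48) and Ccl20 (−1.57 and −2.78) lie above the line, and Glrx and Mmp13 below it.

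Whether the genotype difference itself changed with TGFβ1, or with time in culture, which the labels do not separate from it, was tested as an interaction. Of 14012 genes 0 passed in edgeR, DESeq2 or limma-voom. In edgeR 247 had an unadjusted p below 0.05, fewer than the share of 0.05 that p-values spread evenly from 0 to 1 would give. Id1 and Il1a had the lowest p. Id1 was higher in untreated KO cells (log2 0.23 ± 0.15) and lower in treated ones (−0.75 ± 0.16), an interaction of −0.97 (edgeR adjusted p = 1.00). Il1a differed by −3.98 ± 0.28 without and −2.46 ± 0.24 with TGFβ1, an interaction of 1.52 (adjusted p = 1.00). The blocked fit, which also blocks the untreated libraries by their numbers, called 10 genes (0.0714%), 6 with a positive interaction (0.0428%) and 4 with a negative one (0.0285%). Il1a was among them at 1.55 ± 0.21 (edgeR adjusted p = 0.0102); the others, named after their values were seen, were Cldn4, Mmp3, Areg, Inhba, Slc4a11, Gng11, Gm6392, Deptor and Nupr1. Id1 was not among them. Gm6392 is a processed pseudogene with fractional counts in 11 of the 12 libraries. It stood at 95.4 CPM in treated control replicate 1 and 96.95 CPM in untreated KO replicate 3. In every other library it was at most 4.95 CPM, so its call rests on single libraries. Without the block, Dynap (0.66), Ssbp2 (−0.74) and Gm6612 (−1.83) followed Id1 and Il1a. Mmp13 stood at a mean of 1.31 CPM in untreated control and 0.73 CPM in untreated KO cells, far below the means of 33.1 and 11.2 CPM with TGFβ1; its untreated log2 difference was −0.82 ± 0.50 (edgeR adjusted p = 0.857).

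Cell division, stress and metabolic lists held 0 called genes without the block. The blocked fit called 2.38% of all tested genes lower and 1.65% higher. The lists below are short, so that 1 called gene is already a larger share of its list than these. They are given as description. In the blocked fit 0 of 36 S phase genes, 0 of 21 p53 targets and cell cycle inhibitors and 0 of 13 AP-1 factors passed, and 1 of 30 mitosis genes was lower, Kif23, a spindle midzone motor, by −0.26 ± 0.06. Of 35 hypoxia and glycolysis genes 2 were higher and 4 lower there, with Car9, a carbonic anhydrase, at 0.91 ± 0.16 and the glucose transporter gene Slc2a1 at −0.32 ± 0.07. Of 31 unfolded protein response and ATF4 targets 4 were higher and 3 lower, and of 34 nuclear oxidative phosphorylation genes 2 were higher and 1 lower. Of 13 integrins 1 was higher and 1 lower, with Itgb6, the β6 subunit of a receptor that activates TGFβ, at −1.21 ± 0.16 (edgeR adjusted p = 0.000209). Of 18 EGF receptor, VEGF and TAM genes 4 were higher and 2 lower, with the VEGF receptor genes Flt1 at 0.58 ± 0.11 and Nrp1 at 0.49 ± 0.09. Of 26 Notch and Wnt genes 3 were higher and 2 lower, with the Notch ligand gene Dll1 at −1.22 ± 0.21 and the Wnt receptor gene Fzd7 at −0.51 ± 0.12. Of 23 YAP-TEAD targets 1 was higher (Dlc1, 0.89 ± 0.17) and 2 lower, among them Amotl2 (−0.39 ± 0.06). Keratins (2 higher, 1 lower of 9), actin and contractility genes (1 and 1 of 32), cholesterol and fatty acid synthesis (2 and 1 of 31), NRF2 targets (1 and 2 of 28) and mitochondrially encoded transcripts (0 and 1 of 15) showed no common direction.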

How the data were processed

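Poly(A) RNA was copied, tagmented and read near its 3′ end with strand kept, and molecular identifiers removed duplicates, per the labels' protocols. The submitters' processing notes name build mm39 and, with no order of use, the tools featureCounts, Subread 2.1.1, STAR 2.7.11, fastp 0.24.0, edgeR 3.38.4 and SAMtools 1.22.1. The authors deposited an expected count (estimated count) for each gene, made from deduplicated reads, per the labels' protocols; 91.8% of the values are exactly whole and the others fractional, as when reads are divided among genes. The deposited CPM equalled count over library total within 4.85e-06 and are the levels printed. The 92 spike-in entries, at 0 counts, were left out, and 78317 genes remained.

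Counts were rounded, filtered with filterByExpr (14012 genes kept) and scaled by TMM. All 12 libraries were fitted in edgeR 4.0.16 (R 4.3.3) with 1 mean per group and the quasi-likelihood F test; p was Benjamini-Hochberg adjusted over all tested genes, with a threshold of 0.05, and the SE of a log2 change is its size divided by √F. The scripts were tested on simulated data. P-values measure only the spread between these libraries. Replicates' log CPM correlated at 0.978 to 0.992, and no pair was a copy. The labels do not say what a replicate number shares. The pairing was read from these same counts, where same-numbered pairs with TGFβ1 correlated at 0.396 to 0.726. An unmatched pair reached 0.323, so the correlations alone do not establish a pairing. The blocked p-values depend on that choice.

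The comparison, the 38 gene lists and the motifs were chosen with earlier results of these data known. The text names, among called genes of at least 10 CPM in the higher group, the 15 largest rises and 15 largest falls; up to 4 called members per direction of each list, or the 2 of lowest p where none was called; a panel (Pbrm1, Cdh1, Epcam, Vim, Fn1, Snai1, Zeb1, Zeb2, Smad7, Ccn2, Tnc, Mmp9); and the 5 lowest interaction p. Other genes were named after their values were seen. Alternatives were other scalings and filters, DESeq2 1.42.0, limma-voom 3.58.1, fewer libraries, the replicate block and unrounded counts. RefSeq promoters are of GRCm38.p6, the counts of mm39; no position was carried between them.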

Additional observations from a re-analysis of the deposited data

How the results depend on the processing

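The counts of 28 lower and 10 higher genes moved with the processing. No filter on low counts gave 181 lower, 78 higher and 18 interaction genes. A mean of at least 10 CPM gave 16 lower and 5 higher, and DESeq2 gave 64 and 25. The 6 treated libraries alone gave 4 and 0. Of 13482 genes tested there 821 had an unadjusted p below 0.05 in edgeR, and 881 passed once the libraries were blocked. The replicate block gave 109 lower and 49 higher genes with 1 block over all 12 libraries, 334 and 231 with a block within each treatment (and 10 interaction genes, among untreated pairs that correlated at 0.149, 0.069 and 0.125), and 481 and 400 with the 6 treated libraries alone. Every treated library correlated best with its own number. The block ended no call of the 38. Without both replicate 3 libraries 55 were lower and 21 higher. Leaving out single libraries gave 3 to 48 lower, 0 to 13 higher and 0 interaction genes. RLE scaling, library totals, limma-voom and unrounded counts kept both counts within 1.5 times. Of the 38 calls 3 (Lcn2, Il1a and Acod1) passed in each of the 24 alternatives that tested them, and 0 reversed. Among genes that did not pass, leaving out single libraries turned the sign of Ccn2 (log2 −0.41 to 0.044), Fn1 (−0.062 to 0.21), Smad7 (−0.34 to 0.092), Tnc (−0.61 to 0.15), Egfl7 (−0.065 to 0.15), Snai1 (−0.28 to 0.15) and Mmp9 (−0.20 to 0.59). With n = 3, genes of a few CPM are limited by counting.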

Other observations

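Several genes outside the lists separated same-numbered libraries in the blocked fit and were named after their values were seen. Il24, a cytokine of the interleukin 10 family, stood at 24.4, 24.9 and 49.9 CPM in control and 9.91, 10.3 and 19.4 CPM in KO libraries with TGFβ1 (blocked log2 −1.33 ± 0.12, edgeR adjusted p = 5.34e-06). Ptgs1, the cyclooxygenase COX-1, stood at 27.3, 28.0 and 10.4 CPM against 11.3, 12.3 and 4.11 CPM (−1.26 ± 0.12, edgeR adjusted p = 9.75e-06). Rgs16, which shortens G protein signals, was lower by −1.04 ± 0.13, Cp, the ferroxidase ceruloplasmin, by −0.996 ± 0.13 and Zc3h12a, the RNase regnase-1, which degrades inflammatory messenger RNAs, by −0.83 ± 0.11. Each KO library was below the control library of the same number in all 5 genes.

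On the higher side of the same fit were Nacc2, a BTB-domain repressor (0.88 ± 0.12), Sorcs2, a sorting receptor for neurotrophins (0.73 ± 0.11), Glipr2 (0.68 ± 0.10), F2rl1, the protease-activated receptor 2 (0.62 ± 0.09), the stress-response gene Nupr1 (0.60 ± 0.10) and Slc1a4, a neutral amino acid transporter (0.54 ± 0.09). F2rl1 stood at 20.1, 20.5 and 26.0 CPM in control and 31.8, 30.5 and 40.8 CPM in KO libraries, without overlap. Nupr1 stood at 66.2, 70.6 and 23.3 CPM against 103, 97.6 and 40.1 CPM, where the level in replicate 3 was lower in both genotypes and the groups overlapped.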
